A study of Arabidopsis thaliana with 21 samples.

Results

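On the chromosome arms of Arabidopsis thaliana, 181 sites held peaks of 2 or more forms of the transcription factor GLABRA2 (GL2) fused to enhanced yellow fluorescent protein (EYFP), and no peak of the gl2-5 null mutant. They were chosen by the authors' own peak calls. Peaks of all 6 deposited lists on the 5 nuclear chromosomes were joined into sites where they overlapped by 1 bp or more, which gave 6826 sites. Sites touching 7 intervals were set aside: 5 around the centromeres, 1 over the gene PDF2 and 1 over GL2 itself. Of the 3954 sites left on the arms, 500 held a gl2-5 peak and 3454 did not. Of these 3454 sites, 181 (5.24%) were in at least 2 of the 5 fusion lists, and the remaining 3273 were in 1 list. The lists that hold a site, and the tags and scores of its peaks, decided or are tied to this choice, so they are given below as a description, with no test.

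GL2 belongs to the class IV family of homeodomain leucine zipper (HD-Zip) proteins, which act in the plant epidermis. The homeodomain contacts DNA, the leucine zipper joins HD-Zip partners into dimers, and the START domain is a module related to lipid-binding proteins. GL2 is known to promote trichomes on the shoot, to keep root epidermal cells from forming hairs, and to be needed for mucilage of the seed coat.

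Chromatin immunoprecipitation with sequencing (ChIP-seq) was done on whole seedlings of the Columbia ecotype, aged 10 days, with an anti-GFP antibody (ab290) that also binds EYFP. The EYFP fusions carried gl2_dSTART, gl2_dZip, gl2_Amo or gl2_E375G R392M, which are the 4 altered forms, or wild-type GL2, and were expressed in plants homozygous for gl2-5, after floral dip transformation. The gl2-5 plants without a fusion gave the control for what the antibody brings down by itself. Per the labels, the wild-type fusion rescued the gl2 phenotype and none of the altered fusions did. The labels do not say what Amo stands for, how strongly each fusion was expressed, or whether a line is a single transformant. Whole seedlings hold many cell types beside the epidermis, so a site in few cells and a weakly held site cannot be told apart.

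The series has 21 libraries, 15 of ChIP and 6 of input. The authors joined the 2 or 3 ChIP libraries of a genotype before calling peaks, so every value below is a single measurement with no replicate error, and intervals cover counting error only. After the caller kept 1 tag at each position, the fusion lists rested on 297665 (gl2_dSTART), 1248287 (gl2_dZip), 538666 (gl2_Amo), 372864 (gl2_E375G R392M) and 352707 (GL2) ChIP tags. The gl2-5 list rested on 227071 tags, the fewest of the 6, and between 95.3% and 99.2% of the aligned ChIP tags had been removed. Where a list lacks a peak, the caller did not reach its threshold with these tags, which does not show that the form was absent. This holds most of all for gl2-5, whose low depth bears on every site called free of it. Which reads of near-identical gene copies were kept is not given in the sources used here, so sites in tandem copies are uncertain.

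Most shared sites were shared by few forms. Of the 181 sites, 118 (65.2%) were in 2 lists, 42 (23.2%) in 3, 15 (8.29%) in 4 and 6 (3.31%) in all 5. GL2 was among the lists at 85 sites, and 96 sites were shared among altered forms alone. Of the 26 combinations that the 5 lists allow, 22 were seen. Among pairs of lists with no further form, the altered pair gl2_Amo and gl2_E375G R392M was the most frequent with 21 sites. Among triplets, gl2_Amo, gl2_E375G R392M and GL2 led with 19 sites.

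**Figure D1:**
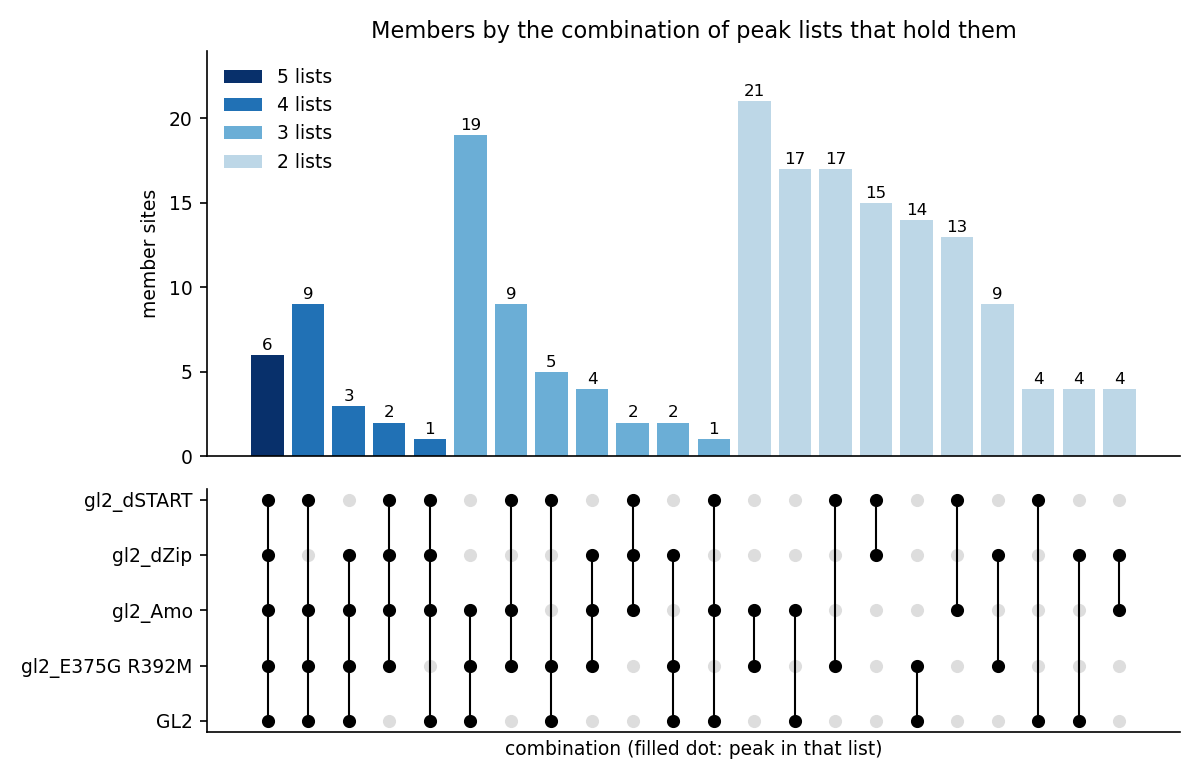
Number of shared arm sites (bars, y axis) for each of the 22 combinations of fusion lists seen, from all 5 lists at the left to pairs at the right; filled dots joined by a line mark the lists in a combination. The tallest bars are the pair gl2_Amo and gl2_E375G R392M (21 sites) and the triplet of these with GL2 (19 sites).

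The forms took unequal parts in these sites. There were 84 shared sites in the gl2_dSTART list, 52 in that of gl2_dZip, 111 in that of gl2_Amo, 120 in that of gl2_E375G R392M and 85 in that of GL2. Set against the length of each list on the arms without gl2-5, this was 8.28% of 1015 gl2_dSTART sites (95% Wilson interval 6.73 to 10.1) and 16.4% of 317 gl2_dZip sites (12.7 to 20.9). It was 7.67% of 1447 gl2_Amo sites (6.41 to 9.16), 21.6% of 555 gl2_E375G R392M sites (18.4 to 25.2) and 21.7% of 391 GL2 sites (17.9 to 26.1). The shortest 3 lists thus had the highest shares, and list length, depth and form cannot be told apart here.

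As a share of both lists, the closest pair was gl2_E375G R392M and GL2. Together they held 58 sites, which was 10.5% of the gl2_E375G R392M sites and 14.8% of the GL2 sites. With GL2, gl2_Amo shared 56 sites (3.87% of its own list and 14.3% of that of GL2). The corresponding counts were 26 sites for gl2_dSTART (2.56% and 6.65%) and 16 for gl2_dZip (5.05% and 4.09%). Between altered forms, gl2_Amo and gl2_E375G R392M held 73 sites in common, or 5.04% of the gl2_Amo sites and 13.2% of the gl2_E375G R392M sites. The lists of gl2_dSTART and gl2_E375G R392M had 48 sites in common (4.73% of the gl2_dSTART sites and 8.65% of the gl2_E375G R392M sites).

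Being shared by several fusions and having a gl2-5 peak went together on the arms. Among arm sites in a single fusion list, 73 of 3346 held a gl2-5 peak, or 2.18% (1.74 to 2.73). For sites in 2 fusion lists the share was 17.5% (25 of 143), for 3 lists 64.1% (75 of 117) and for 4 lists 81.9% (68 of 83). Of the sites in all 5 fusion lists, 41 of 47 held one, or 87.2% (74.8 to 94.0). The 6 sites in all 5 lists described below are therefore what remains of 47 once those with a gl2-5 peak are removed. None of the 181 sites had a gl2-5 peak within 1 kb. The nearest one lay 1260 bp away, and the median distance was 62589 bp.

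**Figure D2:**
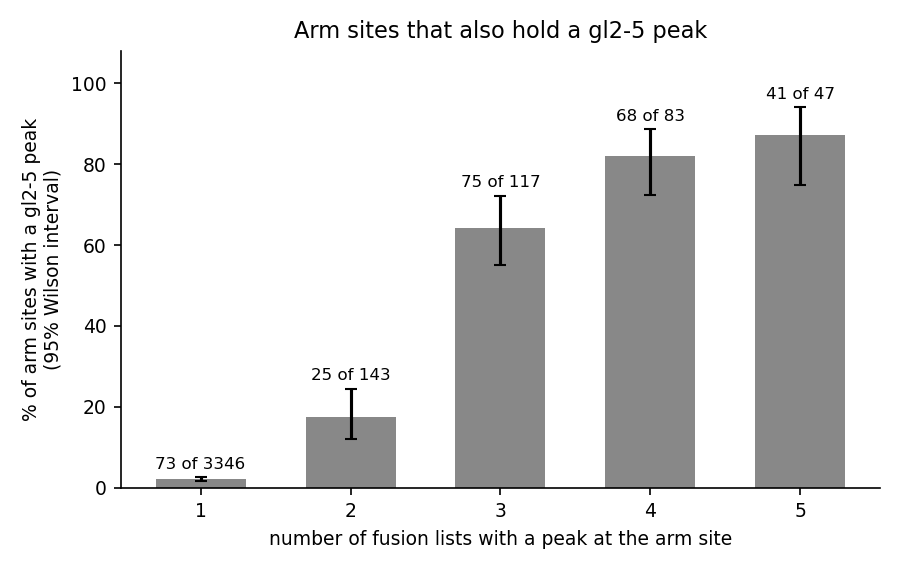
Share of arm sites that also hold a peak of the gl2-5 null mutant (y axis, %, bars with 95% Wilson intervals that cover counting error only) against the number of fusion lists with a peak at the site (x axis). The share is 2.18% for sites of 1 fusion list and 87.2% for sites of all 5.

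Of the 6 sites in all 5 fusion lists, 3 touched a protein-coding gene with no other coding gene within 1 kb: AT5G24610, AT2G01460 and AT3G06760. Here and below, a site is said to be in a gene or pseudogene where any part of it overlaps the annotated span. Of the 21 sites in 4 or 5 lists, 12 touched a coding gene, and 10 had their highest-scoring summit in one. The site in AT2G01460 (chr2:208261-208383, TAIR10) had the most tags of the 6. It held 15 tags of gl2_dSTART, 11 of gl2_dZip, 40 of gl2_Amo, 17 of gl2_E375G R392M and 26 of GL2. The caller's score is −10 times the log10 of its p-value, and ranks by score are given among the arm peaks of a list without gl2-5. The peak here ranked 105 of 317 in the gl2_dZip list and 3 of 1448 in the gl2_Amo list, against 2 of 391 in the GL2 list. The site in AT5G24610 (chr5:8428138-8428248) held 14 tags of gl2_dSTART, 14 of gl2_dZip, 30 of gl2_Amo, 19 of gl2_E375G R392M and 20 of GL2. It was the top-scoring peak of the gl2_Amo list and among the 4 highest for gl2_dSTART, gl2_E375G R392M and GL2. In contrast, it ranked 27 of 317 for gl2_dZip, the list with the most retained tags. The site in AT3G06760 (chr3:2132818-2132911) held 7, 15, 13 and 13 tags of gl2_dSTART, gl2_dZip, gl2_Amo and the double missense form gl2_E375G R392M in this order, and 8 of GL2. All 5 peaks there were small, with between 7 and 15 tags.

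The other 3 lay in or near further genes. A site in AT4G39900 (chr4:18510439-18510586) was 935 bp from UBP3, which codes for a ubiquitin-specific protease. It held 6 tags of gl2_dSTART, 20 of gl2_dZip, 23 of gl2_Amo, 15 of gl2_E375G R392M and 11 of GL2, and it ranked 5 in the gl2_Amo list and 7 in the GL2 list by score. A site 579 bp from AT1G27880 and 858 bp from AT1G27870 (chr1:9708156-9708282) held 7 tags of gl2_dSTART, 15 of gl2_dZip, 9 of gl2_Amo, 6 of gl2_E375G R392M and 7 of GL2. The last, with no coding gene within 1 kb, was 2579 bp from AT1G34750 (chr1:12733325-12733421). It held 5 tags of gl2_dSTART, 13 of gl2_dZip, 17 of gl2_Amo, 6 of gl2_E375G R392M and 10 of GL2. It lay 266579 bp from the interval set aside around the centromere of chromosome 1, so it is an arm site only by that boundary. The same limit holds for others: 6 of the 21 sites in 4 or 5 lists, and 27 of all 181, lay within 1 Mb of such an interval. At the 6 sites in all 5 lists, the largest distance between summits was between 4 and 17 bp.

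A further 15 sites were in 4 lists. GL2 was present at 13 of them and gl2_Amo at all 15. A site in SKdZeta (chr2:13185649-13185734), the gene of a SHAGGY-like protein kinase also called BIN2-LIKE 1, held 7 tags of gl2_dSTART, 14 of gl2_Amo, 16 of gl2_E375G R392M and 6 of GL2. It ranked 2 of 555 by score for gl2_E375G R392M and 34 of 391 for GL2. A site in CIPK23 (chr1:10655842-10655955), which codes for a protein kinase known to act on potassium and nitrate uptake, held 24 tags of gl2_dZip, 34 of gl2_Amo, 20 of gl2_E375G R392M and 11 of GL2. In raw tags the altered forms were above GL2, but scaled to 100000 retained tags gl2_dZip was lowest at 1.92, against 3.12 for GL2, and the GL2 peak was low in its list, at rank 324. The site in NUA (chr1:29830823-29830964), the gene of the nuclear pore anchor, held 6 tags of gl2_dSTART, 9 of gl2_Amo, 9 of gl2_E375G R392M and 10 of GL2. NUA was the only coding gene with a pair of shared sites. Its second site, chosen for this after its values were seen, was in the gl2_E375G R392M and GL2 lists with 6 tags in each (chr1:29826699-29826892).

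The form with the most tags differed among further sites of the 15. A site in AT1G47300, 312 bp from 3BETAHSD/D1, a gene of sterol synthesis, held 20 tags of gl2_dZip, 32 of gl2_Amo, 21 of gl2_E375G R392M and 13 of GL2 (chr1:17339587-17339842). A site 566 bp from the transcribed pseudogene AT3G03855 (chr3:986232-986375) held 21 tags of gl2_dZip, 7 of gl2_Amo, 23 of gl2_E375G R392M and 8 of GL2. The site in AT2G32560 (chr2:13824563-13824711) held 10 tags of gl2_dSTART, 26 of gl2_Amo, 15 of gl2_E375G R392M and 18 of GL2. This site ranked 729 of 1018 for gl2_dSTART but 4 for gl2_Amo, and 5 for GL2. The site in AT1G33860 (chr1:12294093-12294618) was the only one of the 15 without gl2_E375G R392M. Its single gl2_Amo peak held 40 tags, 2 gl2_dSTART peaks held 13 and 7, the gl2_dZip peak held 33, and the GL2 peak held 11.

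The site with the most scaled tags of the 21 was in no coding gene. It lay 2009 bp from MIR394a (chr1:7056086-7056185), the gene of a microRNA. It held 16 tags of gl2_dSTART, 40 of gl2_Amo, 27 of gl2_E375G R392M and 28 of GL2. These were the most tags of any arm peak without gl2-5 in the gl2_dSTART and gl2_E375G R392M lists. Even so, the deposited fold enrichment was between 5.10 and 7.74 in the 4 lists, which means that the tags were that many times the local background the caller expected. The score in the gl2_dSTART list was 55.6, at rank 966 of 1018. The sites near the pseudogenes AT4G08830 (chr4:5628796-5628934) and AT4G03780 (chr4:1685600-1685994) were the only 2 of the 21 without GL2. The first held 12 tags of gl2_dSTART, 12 of gl2_dZip, 13 of gl2_Amo and 9 of gl2_E375G R392M, and the second held 6, 35, 16 and 8 in the same order. The first was 128796 bp from an interval set aside around the centromere of chromosome 4.

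The remaining 5 of the 15 were all in the gl2_dSTART, gl2_Amo, gl2_E375G R392M and GL2 lists and lacked a gl2_dZip peak. The site in AT1G09910, 13 bp from AT1G09920, held 7, 11 and 7 tags of the 3 altered forms and 8 of GL2, close to even in raw tags. The site in AT5G12900 held 8, 17 and 11 tags of the altered forms, against 6 of GL2. The site 1584 bp from AT5G36080 held 10, 19 and 9 tags of the altered forms and 13 of GL2, and that 2829 bp from AT3G51050 held 6, 13 and 9, against 9 of GL2. The site 479 bp from AT4G35710 held 10 tags of gl2_dSTART, 24 of gl2_Amo, 13 of gl2_E375G R392M and 15 of GL2.

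**Figure D3:**
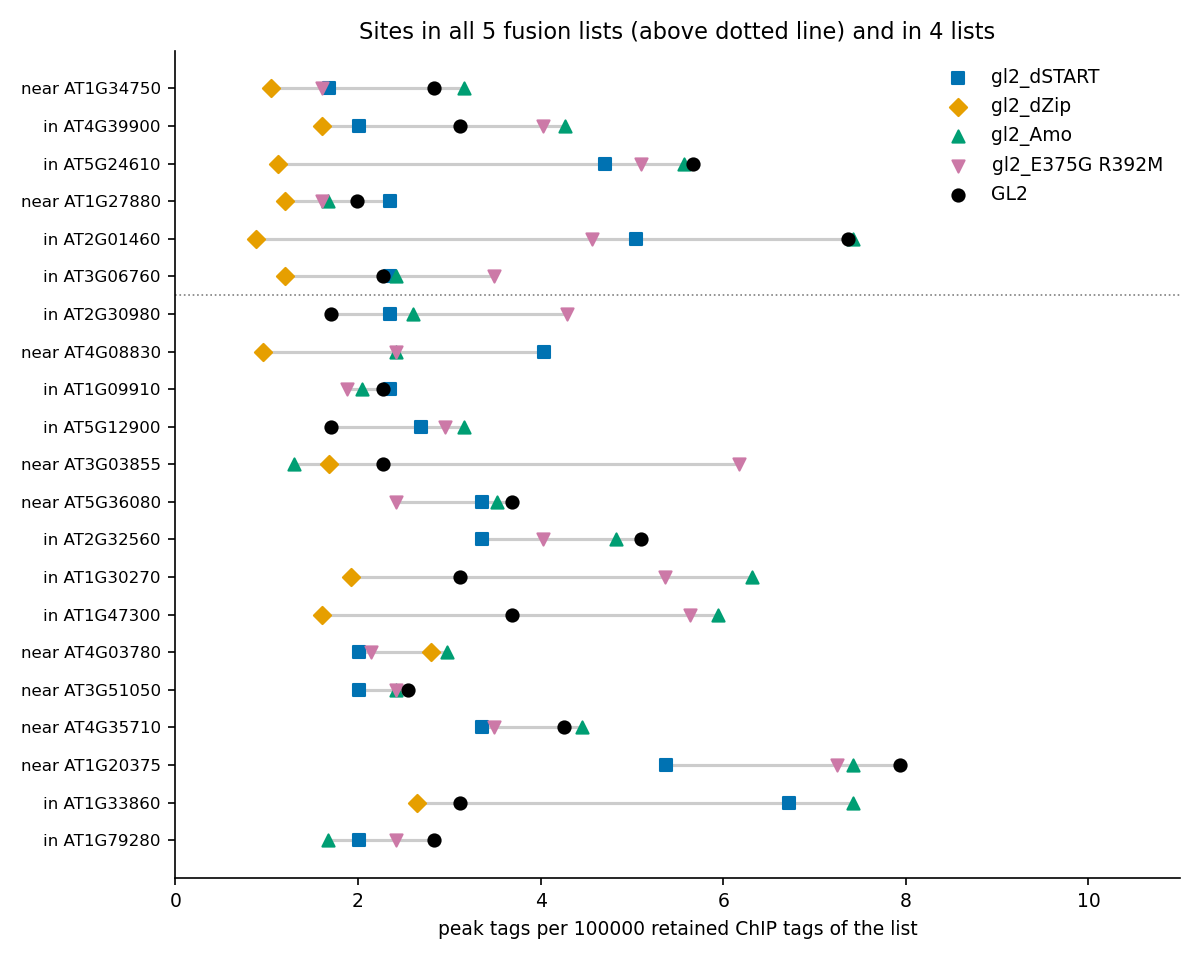
Tags per 100000 retained ChIP tags (x axis) in each fusion list at the 6 sites in all 5 lists and the 15 sites in 4 lists (rows, named by the gene in or near which they lie); 1 symbol per form, with no symbol where a list has no peak. Diamonds for gl2_dZip are the leftmost symbol in 10 of the 12 rows that have one, in the list where peaks could be called at the lowest scaled values.

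Scaled to 100000 retained tags of each list, the tags at these 21 sites, summed where a list had more than 1 peak at a site, had a median of 2.52 tags in the gl2_dSTART list (range 1.68 to 6.72), 1.402 in that of gl2_dZip (0.881 to 2.80), 3.16 in that of gl2_Amo (1.30 to 7.43), 3.49 in that of gl2_E375G R392M (1.61 to 7.24) and 3.12 in that of GL2 (1.701 to 7.94). The ranges of all 5 forms overlapped. Of the 12 sites with a gl2_dZip peak, gl2_dZip had the lowest scaled value at 10. Over all shared sites with both peaks, the scaled tags of an altered form were divided by those of GL2. With gl2_dSTART the median ratio was 0.879 over 26 sites, and gl2_dSTART was above GL2 at 10 of them. With gl2_dZip it was 0.516 over 16 sites, with gl2_dZip above at 0. With gl2_Amo it was 0.970 over 56 sites, with gl2_Amo above at 23, and with gl2_E375G R392M it was 1.04 over 58 sites, with the altered form above at 31. Only called peaks enter these values. At sites in 1 list the fewest tags of a peak were 8 for gl2_dZip and 6 for GL2, on 1248287 and 352707 retained tags. A gl2_dZip peak could thus be called at a lower scaled value than a GL2 peak, so nothing about binding is read from these ratios and counts. The gl2_dZip alignment kept between 2.32 and 4.19 times as many tags as the other fusions. Scaling by it assumes that the tags outside peaks grew in step, which was not tested.

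A pair of sites held far more tags of GL2 than of any other form. The site 512 bp from AT5G50140 (chr5:20395141-20395344) held 31 tags of gl2_dZip and 84 of GL2, and no peak of the other 3 forms. Among arm peaks without gl2-5 it had the highest score of both lists, 216 in that of gl2_dZip and 719 in that of GL2. The site 151 bp from ELP (AT1G12090, chr1:4091008-4091187), singled out after its values were seen, held 19 tags of gl2_dZip, 7 of gl2_E375G R392M and 48 of GL2. Scaled to 100000 retained tags, GL2 had 23.8 at the first site and 13.6 at the second, and the next GL2 peak on the arms without gl2-5 had 7.94. The GL2 arm sites in no other list reached at most 21 tags. The ratio to GL2 in scaled tags was lowest at these sites for both altered forms involved, 0.10 for gl2_dZip at the first and 0.14 for gl2_E375G R392M at the second. GL2 is the divisor of this ratio and the sites are given for their many GL2 tags. A low ratio thus follows largely from that choice, and nothing is read from it.

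In the 42 sites of 3 lists, gl2_Amo and gl2_E375G R392M were together at 32. The first by lowest score of those held by gl2_Amo, gl2_E375G R392M and GL2 was in NSP1 (chr3:5566691-5566861), the gene of a nitrile-specifier protein of glucosinolate breakdown, with 31 tags of gl2_Amo, 16 of gl2_E375G R392M and 18 of GL2. A site in the Sadhu pseudogene SADHU6-1, 3 bp from GRF7, which codes for a 14-3-3 protein, held 26 tags of gl2_Amo, 15 of gl2_E375G R392M and 13 of GL2 (chr3:526192-526290). The site in AT1G51790 held 21 and 16 tags of these altered forms and 13 of GL2, and the one 355 bp from AT3G27040 held 38 and 26, against 25 of GL2. At all 4 of these sites gl2_Amo had the most raw tags, in the list with the most retained tags of the 3. The site in SEP3 (chr1:8595883-8596007), a MADS-box gene of floral organ identity, was held by other forms, with 6 tags of gl2_dSTART, 7 of gl2_E375G R392M and 6 of GL2. The site in AT1G56120, 78 bp from NOP56, which codes for a nucleolar protein, held 17 tags of gl2_dZip, 7 of gl2_E375G R392M and 8 of GL2. That 166 bp from AT5G41030 held 5 tags of gl2_dSTART, 14 of gl2_Amo and 8 of GL2.

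The 118 sites in 2 lists are described by some sites of their leading pairs, not in every case the first by score. Of the gl2_E375G R392M and GL2 pairs, the first by score lay 188 bp from TIR, the gene of a protein with a Toll/interleukin-1 receptor domain, with 10 tags of gl2_E375G R392M and 15 of GL2. The next were in AT1G55840, with 8 tags of each form, and 821 bp from ALPHA DOX2, which codes for an alpha-dioxygenase of fatty acids, with 6 and 12. Of the gl2_Amo and GL2 pairs, the site in AGL14, a MADS-box gene, held 6 tags of gl2_Amo and 9 of GL2. That 278 bp from NFC5 held 8 of each. Between altered forms, a site in CUL4, which codes for the scaffold of a ubiquitin ligase, held 6 tags of gl2_dSTART and 9 of gl2_Amo. A site in AT3G56570 held 20 tags of gl2_Amo and 13 of gl2_E375G R392M, and ranked 8 of 1448 in the gl2_Amo list. Of the gl2_dSTART and gl2_E375G R392M pairs, the site in AT5G59950 held 5 and 8 tags, and that 28 bp from AT2G43580 held 7 and 9. The single top-scoring arm peak of gl2_dSTART without gl2-5 was in the pseudogene AT2G28750, with 13 tags of gl2_dSTART and 9 of gl2_dZip. Counts at sites in 2 lists ran higher as well, up to 150 tags of gl2_dZip at the site in AT4G20530.

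The 15 sites held by gl2_dSTART and gl2_dZip alone were gathered in few places. Members no more than 20 kb from the next were taken as a run where 3 or more followed each other, which gave 4 runs with 22 sites, and 13 of these 15 sites were in runs. One run of 6 sites on chromosome 1 (chr1:21269503-21308540) lay in an array of 79 tRNA genes, 53 for tyrosine and 26 for serine. All 6 touched a tyrosine tRNA gene. They held between 7 and 10 tags of gl2_dSTART and between 22 and 30 of gl2_dZip. The same stretch had 18 further sites in 1 list, all of them of gl2_dSTART and all touching a tRNA gene, 15 for tyrosine and 3 for serine. No peak of gl2_Amo, gl2_E375G R392M, GL2 or gl2-5 was called there.

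A second run of the same combination lay on chromosome 4 (chr4:11072009-11102853), from AT4G20600 to AT4G20703, with 6 sites of between 1056 and 1525 bp. The gl2_dZip peaks were broad and held between 106 and 149 tags, whereas the gl2_dSTART peaks inside them were between 112 and 148 bp long and held between 6 and 9. One more site of this kind, in AT4G20530 (chr4:11049196-11050720), lay outside the run and had 150 tags of gl2_dZip. The scores of the gl2_dZip peaks in this run did not pass 57.6, near the caller's lower limit. At the start of chromosome 2 (chr2:16258-63183), a run of 7 sites touched the pseudogenes AT2G01024 to AT2G01037. Of these, 4 were held by gl2_dZip and gl2_E375G R392M, and 2 sites with a gl2-5 peak lay in the same stretch. The fourth run had 3 sites beside AT1G24938, AT1G25097 and AT1G25180 (chr1:8792713-8830230). Because neighbouring gene copies may share reads, the number of separate sites in these runs is uncertain.

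Where forms shared a site, their summits mostly fell close together. The largest distance between summits of different forms had a median of 7 bp (range 0 to 329), was at most 10 bp at 107 sites, and was at most 50 bp at 154 of the 181 (85.1%). Outside the runs the median was 7 bp and 144 of 159 sites were within 50 bp. In the runs the median was 57.5 bp and 10 of 22 sites were within 50 bp. At the 209 arm sites in 2 or more fusion lists with a gl2-5 peak, the median was 5 bp and 202 were within 50 bp, so close summits were a feature of both kinds of shared site. Tags are 51 bp long and peaks are short, with a median site length of 134 bp, which limits how far apart summits of overlapping peaks can be.

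**Figure D4:**
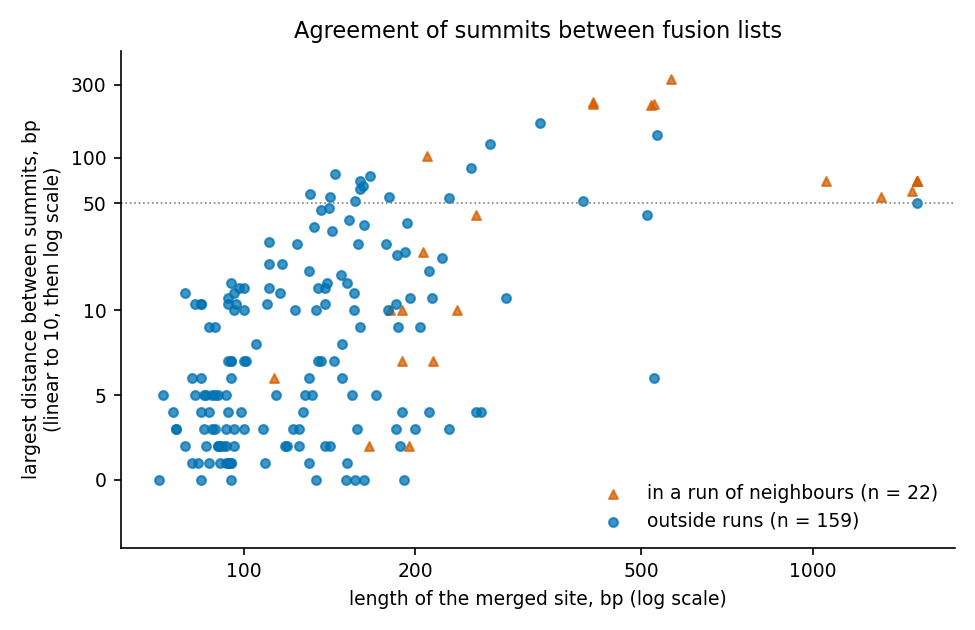
Largest distance between the summits of different forms (y axis, bp, linear up to 10 and log above) against the length of the merged site (x axis, bp, log scale) for the 181 shared sites; triangles are the 22 sites in runs and circles the 159 others, and the dotted line is at 50 bp. Outside the runs 144 of 159 sites are at or below the line, and in the runs 10 of 22.

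Most shared sites had a protein-coding gene within 1 kb. Gene spans came from RefSeq on the TAIR10.1 assembly and were used for names and neighbours only, so promoters, exons and introns were not separated. A coding gene lay within 1 kb of 127 shared sites, or 70.2% (63.1 to 76.4), against 78.9% (77.4 to 80.2) of the 3273 sites in 1 list and 77.5% (71.4 to 82.6) of the 209 with a gl2-5 peak. The interval of the shared sites lay below that of the sites in 1 list. This depended on the threshold. The share of the shared sites was 81.5% at a score of 100 or more and 81.4% at equal list length, settings at which sites in 1 list were not recounted. Without the runs the share was 74.8% (67.6 to 80.9), and the intervals then overlapped. The sites in 1 list differed by form as well, with 81.3% of the gl2_dSTART sites (78.7 to 83.7), 63.8% of those of gl2_dZip (57.8 to 69.3) and between 78.8% and 81.7% of those of the other 3 lists. Most of them were of gl2_Amo (1336) or gl2_dSTART (931), whereas gl2_dZip was at 28.7% of the shared sites. Sites touching a coding gene made up 51.4% (44.1 to 58.6) of the shared sites, against 58.4% (56.8 to 60.1) and 47.4% (40.7 to 54.1). Counted by the highest-scoring summit of each site, a choice made after seeing the data, the shares were 41.4% (34.5 to 48.7), against 56.4% (54.7 to 58.1) and 37.8% (31.5 to 44.5). Without the runs, 54.1% (46.3 to 61.6) of the shared sites touched a coding gene, an interval that overlapped that of the sites in 1 list. By summit it was 45.3% (37.7 to 53.0), which still lay below. In each case the sites in 1 list were left whole. Neighbouring sites are not independent, and none of these differences was tested.

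Within the shared sites, a coding gene lay within 1 kb of 79 of 118 sites in 2 lists, 34 of 42 in 3 lists and 14 of 21 in 4 or 5. With GL2 it was 65 of 85 (76.5%, 66.4 to 84.2), and without GL2 62 of 96 (64.6%, 54.6 to 73.4), with overlapping intervals. Sites touching a coding gene were 44 of 85 with GL2 and 49 of 96 without, and by summit 37.6% with GL2 and 44.8% without. A tRNA gene was touched by 8 shared sites, or 4.42% (2.26 to 8.48), against 0.825% (0.568 to 1.20) of those in 1 list and 0 of 209 with a gl2-5 peak. Without the runs it was 2 of 159 sites, or 1.26% (0.346 to 4.47). The tRNA array on chromosome 1 also held 18 of the 27 sites in 1 list that touched a tRNA gene. These stayed in the 0.825%, so the shares of both kinds without the array are not compared. The 8 were the 6 of the tyrosine array and 2 touching proline tRNA genes, both of which GL2 shared with another form: 1 in NUDT22 with 6 tags of gl2_dSTART and 6 of GL2, and 1 touching AT1G45246 and held by gl2_dZip and GL2. Among sites in 1 list, all 27 that touched a tRNA gene were of gl2_dSTART (19) or gl2_dZip (8). Pseudogenes were touched by 19 shared sites (10.5%, 6.82 to 15.8), of which 8 were in runs, against 8.92% (7.99 to 9.95) of those in 1 list. Without the runs the share was 6.92% (11 of 159 sites).

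**Figure D5:**
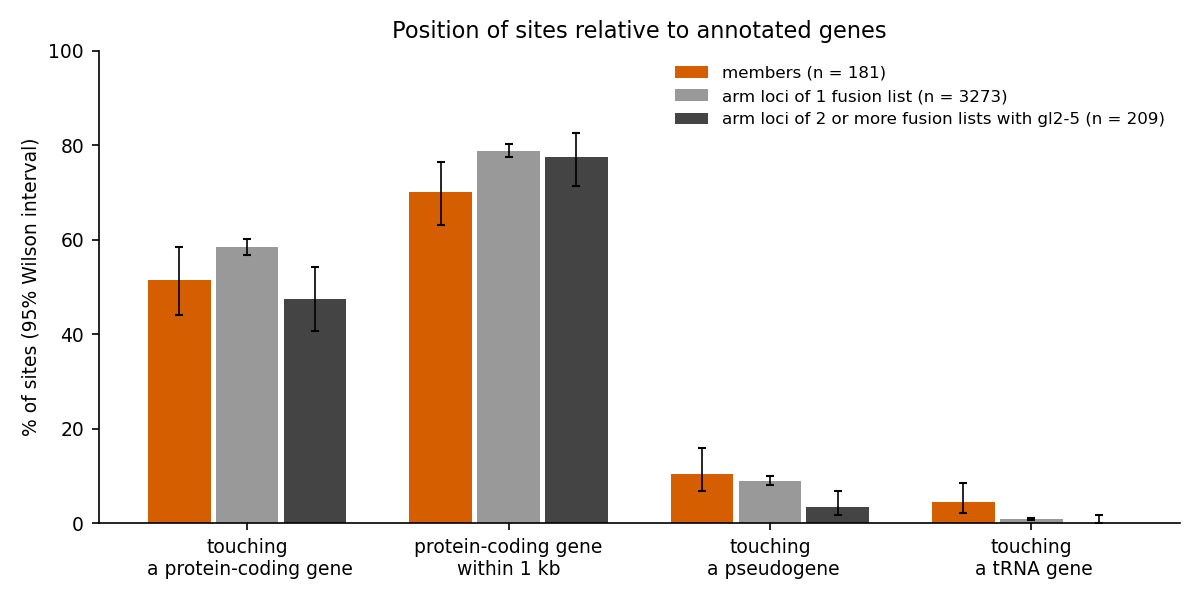
Share of sites (y axis, %, bars with 95% Wilson intervals that cover counting error only) touching or near annotated genes, for the 181 shared sites (members, orange), the 3273 arm sites in 1 fusion list (light grey) and the 209 arm sites in 2 or more fusion lists with a gl2-5 peak (dark grey). A coding gene lies within 1 kb of 70.2% of the shared sites, against 78.9% of those in 1 list, and tRNA genes are touched by 4.42% and 0.825%. Without the sites in runs these shares of the shared sites are 74.8% and 1.26%, while the sites in 1 list were left whole.

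Genes of lists drawn up for the epidermis and related pathways, for photosynthesis and for wide expression were set beside all coding genes. The shared sites had 170 protein-coding genes within 1 kb, which is 0.620% of the 27432 in the table. Of 216 genes in 10 lists, 2 had a shared site within 1 kb (0.926%). This is near the share over all coding genes, so nothing is read from the count or from a list without a site. One was GPAT6, a glycerol-3-phosphate acyltransferase of cutin synthesis, with a site touching the gene (chr2:15955385-15955484) that held 6 tags of gl2_Amo and 8 of gl2_E375G R392M. The other was ARF19, an auxin response factor, with a site touching the gene (chr1:6630279-6630350) that held 6 tags of gl2_dSTART and 8 of gl2_E375G R392M. Neither site had a GL2 peak. There was 1 gene of 35 from the cuticle and wax list and 1 of 27 from the auxin list. No gene had a site among 31 of trichome and root hair patterning, 16 of the class IV HD-Zip family, 19 of root hair growth, 14 of mucilage, 21 of flavonoid synthesis, 17 of stomata, 20 of photosynthesis and 17 expressed in most tissues. GL2 and PDF2 lay in intervals that had been set aside, so for them the choice of sites fixes this outcome.

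The caller rated the shared peaks by its own false discovery rate (FDR), which it takes from calls with ChIP and input exchanged. At an FDR of 5% or less were 87 of 87 shared gl2_dSTART peaks, 0 of 52 of gl2_dZip, 110 of 112 of gl2_Amo, 91 of 120 of gl2_E375G R392M (75.8%) and 40 of 85 of GL2 (47.1%). Over all arm peaks without gl2-5 the lists of gl2_dSTART and gl2_dZip had shares of 100% and 0%, that of gl2_Amo 99.4%, that of gl2_E375G R392M 75.5% and that of GL2 29.4%. The shared peaks were thus near their own list's share for every form but GL2. No gl2_dZip peak reached this FDR, and 32 of the 181 sites were in the gl2_dZip list and 1 other, so that they rest on such a peak.

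Shared peaks held more tags than those in 1 list. The gl2_dSTART peaks had a median of 7 tags at shared sites and 5 at sites in 1 list, those of gl2_dZip 21.5 and 11, and those of gl2_Amo 11 and 6. The medians were 9 and 6 with gl2_E375G R392M as with GL2. The deposited fold enrichment ran the other way, with a lower median at shared sites in each of the 5 lists. It was 31.6 at shared sites and 35.1 at sites in 1 list for gl2_dSTART, and 18.9 and 19.2 for gl2_dZip. For gl2_Amo it was 19.8 and 21.6, for gl2_E375G R392M 24.5 and 34.5, and for GL2 22.5 and 35.4. The highest-scoring arm peak without gl2-5 was at a shared site in each of the 5 lists. Of the 20 highest, 13 were shared in the gl2_Amo list, 10 in that of gl2_E375G R392M and 12 in that of GL2. With ties at the last place, it was 7 of 23 in the gl2_dSTART list and 14 of 21 in that of gl2_dZip. On either side of the limit of 2 lists, the highest score of a site had a median of 98.1 at sites in 2 lists and 74.1 at sites in 1. It was 120 at 3 lists, 196 at 4 and 268 at 5. A site with several peaks has more chances of a high score, so these medians describe the choice of sites and nothing is read from them.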

How the data were processed

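Peaks were called by the authors with MACS 1.4.2, per the file headers, from the joined ChIP libraries of each genotype and 1 input, with a p cutoff of 1e-05 and no more than 1 tag per position. The submitters' processing notes name the TAIR10 build and Bowtie2 2.2.3. Each deposited peak, per the file headers, carries a count of whole retained tags, not scaled to library size, and a score from its p-value against the local background. The deposited fold enrichment is a ratio of tags to that background, and the deposited FDR is a percent. All are the authors' own values of a peak, and they served to describe peaks and to rank or filter them inside their own list.

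From these, peaks were merged into sites (1 bp), counted by combination of lists, and set beside gene spans of RefSeq on TAIR10.1, taken to match TAIR10. Of 226 names in the 10 gene lists, 216 matched. Shares have 95% Wilson intervals. Sites picked by rule for naming were all those in 4 or 5 lists; the first 3, ranked by number of lists and then lowest score, of each combination of 2 or 3 lists with at least 10 sites; the first of smaller combinations with GL2; the 5 with the most scaled tags; and those near a listed gene, 49 in all. Not all of the 49 are described above, among them AT4G38490, AT5G48575, AT3G49880, AT4G11385 and AT5G37070. The sites and lists were chosen with earlier results of these data known. No test was run, since replicates had been merged before calling. The merging was checked on simulated peaks (Python 3.11.15, pandas 2.3.3, scipy 1.17.1). Alternatives covered the joining of peaks, thresholds, list length, intervals, distances and leaving out each list. A planned search for the L1 box was not run because no genome sequence was used here.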

Additional observations from a re-analysis of the deposited data

How the results depend on the processing

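The number of shared sites (181 as reported) moved with the threshold: 109 at an FDR of 5% or less in the fusion lists, 54 at a score of 100 or more, 64 at 10 or more tags, 59 with every list reduced to its highest-scoring peaks at the length of the shortest, and 120 without the gl2_E375G R392M list. In the same first 4 settings, sites with GL2 (85) numbered 36, 28, 37 and 37, and sites in 4 or 5 lists (21) numbered 12, 6, 9 and 8. The FDR setting took out the whole gl2_dZip list, since 0 of its 317 arm peaks without gl2-5 passed. A site could then be in at most 4 lists. Sites in 4 or 5 lists also fell to 8 without the GL2 list, 9 without that of gl2_dSTART, 6 without that of gl2_Amo and 7 without that of gl2_E375G R392M, since fewer lists remain. The share with a coding gene within 1 kb (70.2%) was 81.5% at a score of 100 or more, 81.4% at equal list length, 61.9% for 500 bp and 81.2% for 2 kb. The share touching one (51.4%) was 66.7% at a score of 100 or more, 61.0% at equal length and 41.4% by the highest-scoring summit, which was added after seeing the data. Sites in 1 list were not recounted at the score and list length settings, so these shares have no matching comparison. Other settings kept counts within 1.5 times, between 126 and 235 sites in all. Leaving out runs, also added later, left 159 sites. Which of these differences come from the sites and which from fewer peaks was not tested. No paired analysis was possible because replicates had been merged before calling, and no replicate could be left out. The low depth of gl2-5 limits which sites count as free of it.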
